A study of Mus musculus with 2 samples.

Results

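A set of 8 genes around 3 glycans of the nervous system was described here in the brain of postnatal day 10 mice. It held the polysialyltransferases St8sia2 and St8sia4, the polysialic acid carrier Ncam1, and Ncam2, the second NCAM. The others were the HNK-1 enzymes B3gat1, B3gat2 and Chst10, and the Lewis x enzyme Fut9. All 8 were chosen by name, with earlier results of these data known. Every array entry that is not a control and bears any of the 8 symbols was taken, which gave 22 probes of 60 bases. The arrays name 37073 genes or unnamed transcripts in all, on 56603 probes. The series compared total RNA of brain from C57BL/6J mice of 2 genotypes, each on 1 array: GPHR F/F;Nes, and its littermate control, which was GPHR F/F. The gene Gpr89 encodes GPHR, a channel for anions that helps to keep the Golgi acidic. Both groups carry the GPHR F/F allele. The labels do not spell out Nes, do not name the deleted part of the gene or the cells in which it is deleted, and do not say whether animals were pooled.

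Polysialic acid is a long chain of sialic acids that is built on the N-glycans of the neural cell adhesion molecule NCAM. It weakens adhesion between cells, and in the brain it is known from migrating and immature neurons and their growing processes. HNK-1 is a sulfated glucuronic acid at the tip of a glycan, known from neural adhesion molecules and perineuronal matrix, and Lewis x is a fucosylated glycan end known from neural stem cells. All of these are finished in the Golgi apparatus.

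All 8 genes were slightly lower in GPHR F/F;Nes, and none differed 2-fold. A difference here is the log2 value of GPHR F/F;Nes less that of the control, after the 75th percentile of all probe signals had been subtracted on each array, so a gene counts as lower only in relation to that percentile. The 8 gene values ran from -0.72 for Ncam2 to -0.15 for B3gat1 and Fut9, with a median of -0.35, against a median of 0.07 over all 23948 genes measured. A gene was measured when at least 1 probe was well above background on both arrays, and its value is the mean over such probes. None of the 8 was at least 2-fold lower, where 1.37% of all measured genes were, and none was at least 2-fold higher, where 7.93% were. Of all measured genes, 43.0% lay below 0. Ncam2 alone was at least 1.5-fold lower, as were 5.69% of all genes. That count was 5 of 8 with each array centred on its median (16.5% of all genes), 2 when each gene was read from its brightest probe (6.54%) and 0 after normexp background correction (2.2%). By the main scaling none of the 8 was at least 1.5-fold higher, where 18.1% of all genes were.

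Since each genotype had a single array, the differences could not be checked against replicates, and none was tested. Each ± was calculated from the errors that the scanner software attaches to the signals on both arrays, without any spread between animals. For a gene it combines the errors of its probes as if they were independent. For a single probe it was at least 0.20 log2 units (0.41 for the dimmest), and 7 of the 20 measured probes lay below 0 by more than 2 such errors, as did 12% of all measured probes (4416 of 36717). The arrays differed in overall brightness, the 75th percentile being 259.5 scanner units on the control array and 173.4 units on the other. Gpr89 itself, measured by 1 probe at 43.3 and 20.04 units, differed by -0.53 ± 0.22, and it stayed below 0 in the scalings given further on (-1.48 to -0.28). Since the labels do not name the deleted part, it is unknown whether this probe lies in it. The genotypes also differed in sex-linked RNA: Xist passed the background on the GPHR F/F;Nes array only (234.1 units), and Eif2s3y on the control array only (710.4 and 119.2 units on its 2 probes). Genotype and sex can therefore not be told apart in these data.

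**Figure D1:**
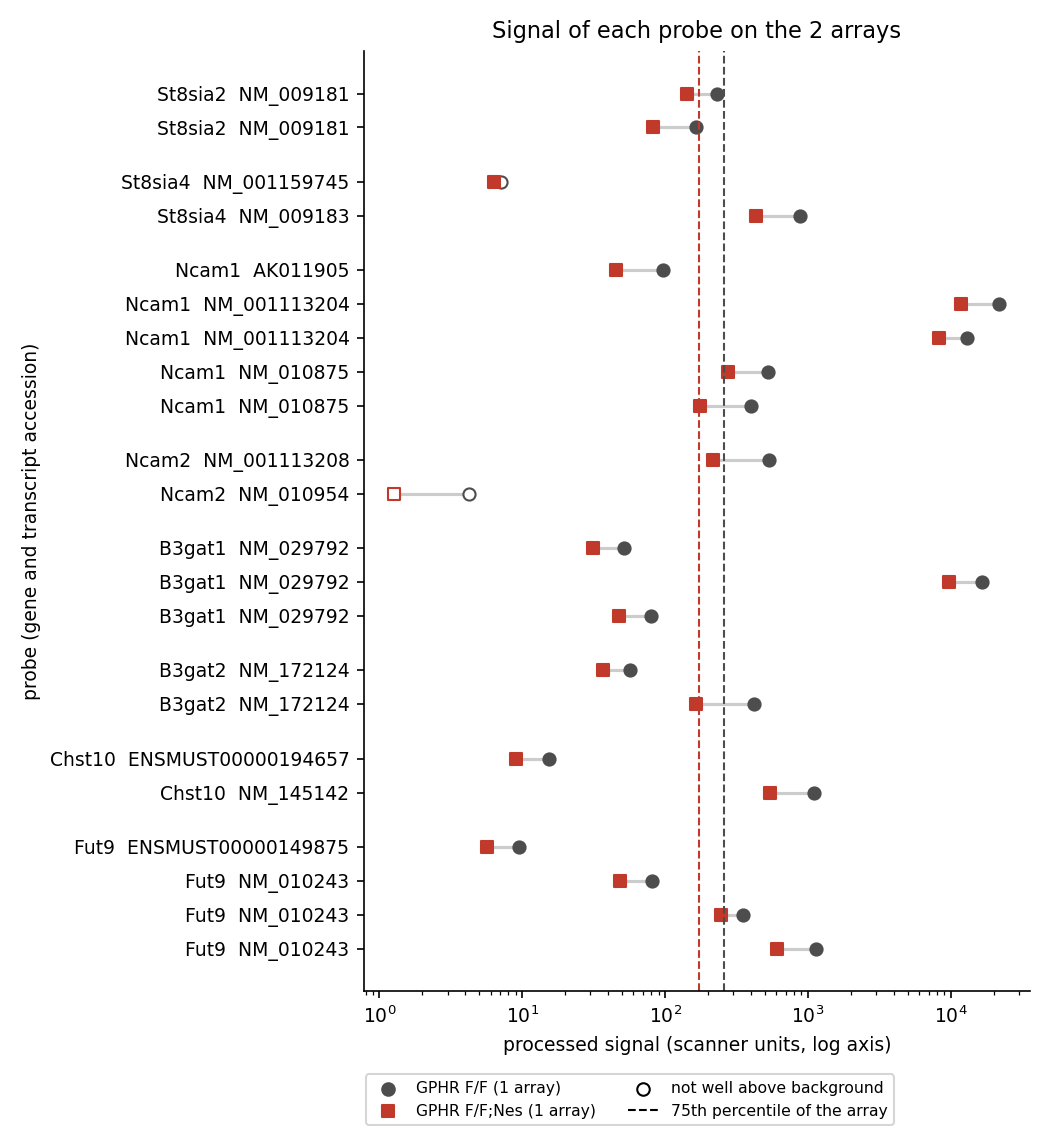
Processed signal in scanner units (log axis) of each of the 22 probes, with grey circles for the GPHR F/F array and red squares for the GPHR F/F;Nes array (1 array each), open symbols for signals not well above background, and dashed lines at each array's 75th percentile. The signals are shown before scaling, and the 75th percentile was itself lower on the GPHR F/F;Nes array (173.4 against 259.5 units). A lower signal in this figure is therefore not by itself a lower scaled level.

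St8sia2 encodes the polysialyltransferase that prevails in the embryonic and newborn brain. Its first probe gave 231.5 units in the control brain and 142.5 in the GPHR F/F;Nes brain, a difference of -0.12 ± 0.20. The second gave 163.8 and 81.9 units, a difference of -0.42 ± 0.21. Both probes were lower in GPHR F/F;Nes, the second by more than 2 scanner errors and the first by less than 1, and the gene value was -0.27 ± 0.14. On mm9, the build of the array's coordinates, they lie on the minus strand at chr7:81084412-81084471 and chr7:81085872-81085931.

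St8sia4 encodes the second polysialyltransferase, which persists into the adult brain. The probe to the transcript NM_009183 (chr1:97484331-97484390, minus strand) gave 874.4 units in the control brain and 433.1 in the GPHR F/F;Nes brain, a difference of -0.43 ± 0.20. A further probe to the transcript NM_001159745 (chr1:97524211-97524270, minus strand) gave 7.07 and 6.39 units. Only the GPHR F/F;Nes signal counted as well above background. It was the lower of the 2 before scaling and at least 1.35-fold higher after it, so no direction can be read from this probe. With this dim probe averaged in, the St8sia4 value was 0.0019 in place of -0.43. The value of St8sia4 thus rests on the probe to NM_009183.

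The beginnings of these 4 probes, and of 4 more from the genes whose probes differed most among themselves, are printed here. No annotation of mm9 was at hand, so their place in exons, introns or untranslated ends could not be read. Each line gives the first 30 of 60 bases as deposited, 5′ to 3′, with stop triplets (TAA, TAG or TGA in any frame of the probe strand) in capitals. Of the 22 probes, 8 had stops in all 3 frames over their 60 bases and so cannot lie wholly within coding sequence. Among those printed, these were the second St8sia2 probe, the St8sia4 NM_009183 probe and the Ncam1 probe with the smallest difference.
St8sia2 first probe: TAAgatctccTGAcccacagaaatgtgccc
St8sia2 second probe: acccagcatcctctctgTGAagaggagtta
St8sia4 NM_009183 probe: aaggaaggaTGAagcttactctgTAGgttc
St8sia4 NM_001159745 probe: aTGAgagTGAcagagaaaaatttgtgcata
Ncam1 probe with the smallest difference: aaagagacaaaaaggtTAAacccacagcca
Ncam1 probe with the largest difference: ctgtgtatTAGtacagtccgtacaccatgt
B3gat2 probe with the smaller difference: gggacTAGttggtgggcgacgctaTGAacg
B3gat2 probe with the larger difference: gatccctcaTAAaactgtgcttTGAaaata

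Ncam1, the main carrier of polysialic acid, was measured by 5 probes, and all 5 were lower in GPHR F/F;Nes. The 2 probes whose main accession is NM_001113204 gave 21907 and 11726 units (-0.32 ± 0.20), and 13009 and 8320 units (-0.06 ± 0.20). The probe listed for NM_010875 but not for NM_001113204 gave 400.9 and 175.7 units, and its difference of -0.61 ± 0.20 was the largest of the 5. The array lists 1 further probe for both transcripts, and it gave 520.8 and 276.5 units (-0.33 ± 0.20). The last probe, to the cDNA AK011905, gave 96.2 and 45.5 units (-0.50 ± 0.21). The differences of the 5 probes thus ran from -0.61 to -0.06. Over the 5 probes the value was -0.36 ± 0.09, with an SD of 0.21 between probes, close to the median SD of 0.20 over the 8137 genes with several measured probes. The probes lie on the minus strand of chromosome 9, from chr9:49310320-49310379 to chr9:49450013-49450072, the smallest difference at chr9:49313224-49313283 and the largest at chr9:49323381-49323440.

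Ncam2 encodes the second NCAM, an adhesion molecule known from olfactory neurons, and had the largest difference of the 8 genes. Its probe to NM_001113208 (chr16:81624327-81624386, plus strand) gave 530.5 units in the control brain and 215.0 in the GPHR F/F;Nes brain, a difference of -0.72 ± 0.20, or 1.65-fold lower. Of all measured genes, 3.42% had a lower value. The other Ncam2 probe, to NM_010954 (chr16:81597911-81597970), gave 4.24 and 1.27 units and was not well above background on either array. The Ncam2 value therefore rests on a single probe to 1 of its transcripts.

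**Figure D2:**
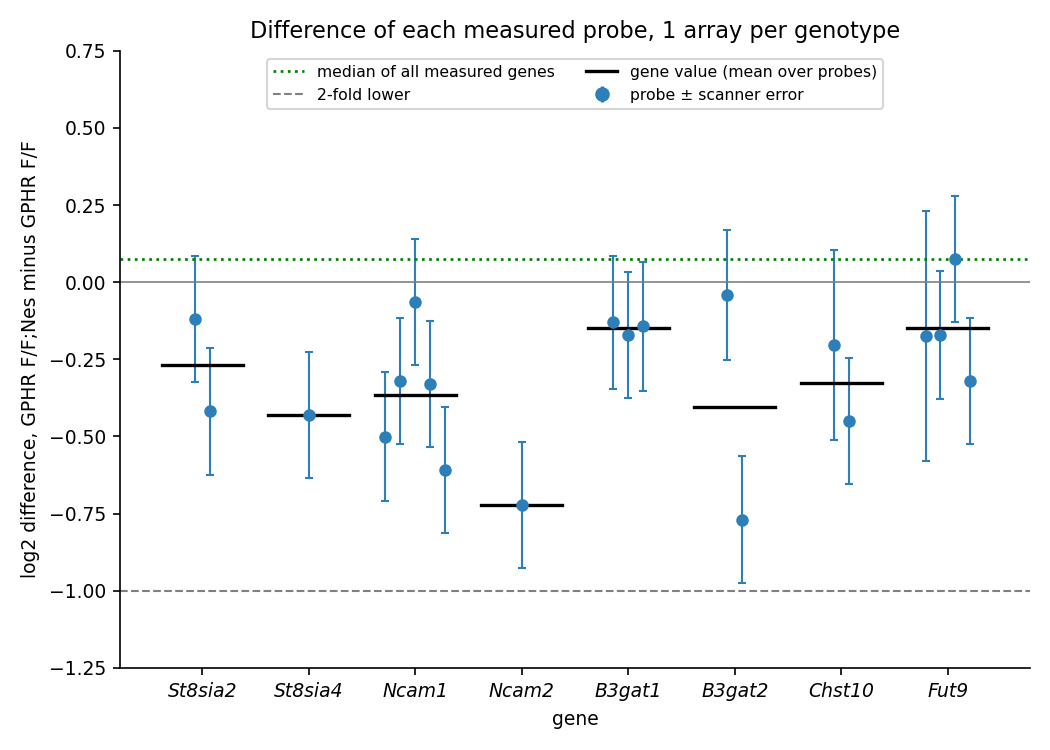
Log2 difference (GPHR F/F;Nes less control, 1 array each) of the 20 measured probes by gene, as points with the scanner error of the difference, with a black bar for the gene value, a dotted line at the median of all genes (0.07) and a dashed line at 2-fold lower. Of the 20 points, 19 lie below 0 and none reaches the 2-fold line, and the probes of B3gat1 lie close together while those of B3gat2 lie far apart.

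The HNK-1 enzymes were lower by small amounts. B3gat1 encodes the glucuronyltransferase that makes most of the HNK-1 epitope of the brain. Its 3 probes gave 79.1 and 47.9 units (-0.14 ± 0.21), 51.5 and 31.4 units (-0.13 ± 0.22), and 16478 and 9778 units (-0.17 ± 0.20). The 3 differences lay between -0.17 and -0.13 although the probes lie at separate places of the gene, and the gene value was -0.15 ± 0.12. On mm9 they lie on the plus strand of chromosome 9 at chr9:26559373-26559429, chr9:26564585-26565303 and chr9:26568835-26568894. The middle one spans 719 bp of genome with its 60 bases, so its match is split.

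B3gat2 encodes the related glucuronyltransferase, and its 2 probes to NM_172124 differed from each other. The probe at chr1:23822095-23822154 gave 56.9 units in the control brain and 36.9 in the GPHR F/F;Nes brain, a difference of -0.04 ± 0.21. The probe at chr1:23854630-23854689 gave 421.2 and 165.1 units, a difference of -0.77 ± 0.20, the largest of all 20 measured probes. Their mean of -0.41 ± 0.15, with an SD of 0.51 between the probes, lies far from both. No probe was 2-fold lower, where 1.45% of all measured probes were.

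Chst10 encodes the sulfotransferase that completes HNK-1. Its probe to NM_145142 (chr1:38920893-38920952, minus strand) gave 1102 units in the control brain and 538.9 in the GPHR F/F;Nes brain, a difference of -0.45 ± 0.20. A dim probe to the transcript ENSMUST00000194657 (chr1:38926989-38927048) gave 15.5 and 8.98 units, a difference of -0.20 ± 0.31. Both were lower, and the gene value was -0.33 ± 0.18.

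Fut9 encodes the fucosyltransferase that makes Lewis x in the brain, and had the only probe above 0. Of its 3 probes to NM_010243, that at chr4:25536646-25536705 gave 1139 and 609.2 units (-0.32 ± 0.20). The probe at chr4:25546977-25547036 gave 81.5 and 48.4 units (-0.17 ± 0.21). At chr4:25546131-25546190, between these, the signal was 349.6 and 245.8 units (0.07 ± 0.20). A dim probe to ENSMUST00000149875 (chr4:25726376-25726435) gave 9.51 and 5.63 units (-0.17 ± 0.41). All 4 lie on the minus strand. The gene value of -0.15 ± 0.14 lay within about 1 scanner error of 0.

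Counted by probe, 19 of 20 measured probes of the 8 genes lay below 0, where 46.1% of all 36717 measured probes did, and 3 were at least 1.5-fold lower, where 6.48% of all were. The 3 were those of Ncam2, of B3gat2 (the second probe) and of Ncam1 listed for NM_010875. Probes of 1 gene share their transcripts, so they are not independent. By gene, 4 values (Ncam1, Ncam2, St8sia4 and B3gat2) lay below 0 by more than 2 scanner errors, as did 13.3% of all measured genes.

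All 8 genes lay below 0 in each of 6 ways of bringing the arrays to 1 scale, and the size of the differences varied. The share of all genes below 0 varied as well, from 43.0% in the main scaling to 49.8% after loess, 52.7% after normexp, 53.2% after quantile normalization, 66.4% with median centring and 91.3% with spike-ins. Centring each array on its median moved the median of all genes from 0.07 to -0.20 and that of the 8 genes to -0.62. Scaling to spike-in RNAs, chosen after seeing the data, moved them to -0.88 and -1.30, and all 8 genes were then at least 2-fold lower, together with 38.3% of all genes. Since this step lowered every difference by 0.95, values given here as above 0 and under that size fall below 0 with it. Relative to the median of all genes the median of the 8 was -0.42 in these 3 scalings, -0.36 after quantile normalization, -0.35 after a loess correction for signal level and -0.26 after normexp background correction with quantile normalization. Of all genes past 2-fold, 85.3% were higher in the main scaling, 57.1% with median centring, 68.6% after quantile normalization, 72.5% after loess, 79.1% after normexp and 1.99% after spike-in scaling.

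**Figure D3:**
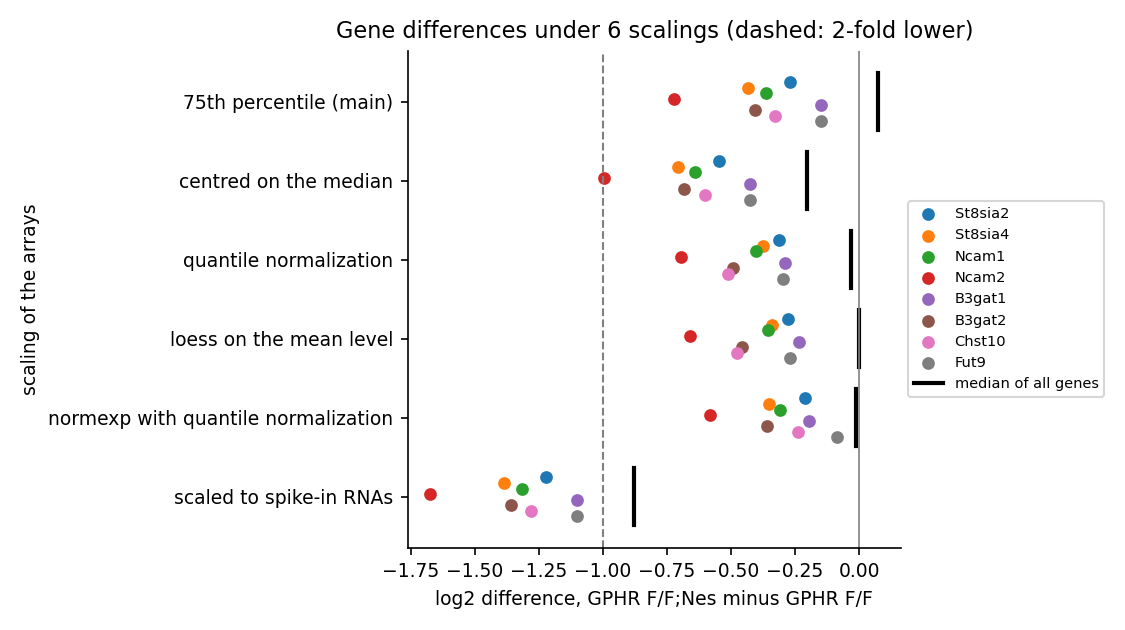
Log2 difference of each of the 8 genes (coloured points; GPHR F/F;Nes less control, 1 array each) under 6 ways of scaling the arrays, with a black bar for the median of all measured genes and a dashed line at 2-fold lower. The 8 points lie to the left of the bar in each of the 6 rows, and the bar itself moves from 0.07 to -0.88.

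Promoter sequence was at hand for 5 of the 8 genes, as the 250 bases before the start site (RefSeq, GRCm38.p6). These were St8sia2, St8sia4, Ncam2, B3gat1 and Chst10. On both strands, 5 short motifs were searched in them and in all 32851 promoters of the table. The Golgi stress element ACGTGGC, bound by TFE3, was in none of the 5 and in 2.02% of all promoters. The E-box CACGTG, which can overlap it, was in none and in 6.02%, and the TATA box TATAAA was in none and in 12.4%. The GC box GGGCGG was in 3 of the 5 (St8sia2, St8sia4 and Ncam2) and in 32.7% of all, and CCAAT was in 2 (St8sia4 and Chst10) and in 33.8%. A match is a description of letters, not a bound site. The windows of the 2 polysialyltransferase genes, which share GC boxes, are printed 5′ to 3′ on the minus strand, with GC and CCAAT boxes of either strand in capitals. They lie at chr7:74013683-74013932 for St8sia2 and chr1:95667595-95667844 for St8sia4.
St8sia2: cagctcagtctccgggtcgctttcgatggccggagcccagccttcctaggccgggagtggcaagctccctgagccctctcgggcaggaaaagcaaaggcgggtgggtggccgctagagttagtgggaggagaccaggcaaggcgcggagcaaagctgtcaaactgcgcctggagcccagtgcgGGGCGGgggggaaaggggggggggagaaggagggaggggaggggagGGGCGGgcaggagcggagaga
St8sia4: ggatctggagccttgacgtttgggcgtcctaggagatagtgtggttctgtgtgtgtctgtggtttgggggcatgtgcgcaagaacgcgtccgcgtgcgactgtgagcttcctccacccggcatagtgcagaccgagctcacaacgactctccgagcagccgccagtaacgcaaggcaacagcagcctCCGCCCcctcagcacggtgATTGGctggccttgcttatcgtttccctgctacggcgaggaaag
The St8sia2 window held 2 GC boxes, and the St8sia4 window held 1 GC box and 1 CCAAT box. Their GC content was 68.8% and 60.4%, against a median of 52.4% over all promoters of the table.

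Around the 8 genes, the other genes of the same pathways went in both directions. In 10 lists, 61 further genes were measured, with a median of -0.07. Of these, 36 lay below 0, where 43.0% of all measured genes did. None was at least 2-fold lower (1.37% of all genes) and 3 were at least 2-fold higher (7.93% of all genes). The same shares of all genes apply to the counts by list that follow. All 4 other members of the ST8 family of sialyltransferases lay below 0 (median -0.54). The brain enzymes St8sia3 (1897 and 728.3 units, -0.80 ± 0.20) and St8sia5 (1126 and 442.8 units, -0.77 ± 0.20), which act on gangliosides and glycoproteins, had the largest differences there, ahead of St8sia6 (-0.31 ± 0.22). St8sia1 was near 0 at -0.03, from a dim probe at 0.46 (13.9 and 12.8 units) and a brighter probe at -0.53 (276.1 and 127.8 units).

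Genes that supply sialic acid differed little. Of 5, 4 lay below 0, with a median of -0.15. They were Gne, the entry enzyme of sialic acid synthesis (-0.22 ± 0.14), Nanp (-0.17 ± 0.15), the Golgi transporter of activated sialic acid Slc35a1 (-0.15 ± 0.14) and Cmas, which activates sialic acid (-0.13 ± 0.14), whereas Nans stood at 0.14 ± 0.14. Of 4 measured genes that remove or break down sialic acid, 2 lay on each side of 0. The sialidase Neu3 stood at 0.87 ± 0.21, Npl at 0.25 ± 0.20, Neu2 at -0.04 ± 0.15 and the lysosomal sialidase Neu1 at -0.23 ± 0.20.

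Genes for the donors of HNK-1 lay on the other side of 0 from its enzymes. All 8 were above 0, with a median of 0.26, and none was 2-fold higher. Papss2, which makes the sulfate donor, had the largest difference (159.6 and 191.5 units, 0.84 ± 0.20), followed by the nucleotide sugar transporter Slc35d2 (0.73 ± 0.26) and by Ugp2 (0.35 ± 0.20), which makes the sugar nucleotide UDP-glucose. Slc35d1 stood at 0.29, from probes at -0.48, 0.75 and 0.59. With each array centred on its median this list's median was -0.02, so its direction depended on the scaling. Of the enzymes related to the HNK-1 pathway, the galactosyltransferases B4galt1 and B4galt2 stood at 0.58 ± 0.16 and -0.36 ± 0.20. B3gat3, which builds the linker of proteoglycan chains, stood at 0.25, from probes at -0.40, 0.55 and 0.61. The first was the brightest (415.8 and 210.8 units), and the others gave 10.1 and 9.93 units and 36.3 and 36.9 units.

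Genes for proteins that carry these glycans lay, like Ncam1, mostly below 0. Of 12 measured HNK-1 carriers, 10 lay below 0, with a median of -0.25. The adhesion molecule Cntn1 had the largest negative difference (-0.85, probes at -0.85 and -0.86), followed by the proteoglycan Acan (-0.78 ± 0.22) and the adhesion molecule L1cam (-0.69 ± 0.12, all 3 probes below 0). The matrix protein Tnc was the only one that differed 2-fold, at 1.34 ± 0.15 (probes at 1.29 and 1.39), and the myelin protein Mag stood at 0.77 ± 0.15. Of 3 other carriers of polysialic acid, Nrp2, a semaphorin receptor, stood at -0.69 with all 3 probes below 0 (-1.01, -0.72 and -0.35). Cadm1, a synaptic adhesion molecule, stood at 0.31 from probes at -0.39, -0.25 and 1.58, the last of them dim at 14.5 and 28.9 units. The chemokine receptor Ccr7 was dim as well, at 7.0 and 11.2 units (1.26 ± 0.37).

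Genes that supply activated fucose lay below 0 in 6 of 6 cases, with a median of -0.31. Slc35c2 (-0.57 ± 0.20), Fpgt (-0.48 ± 0.20) and the Golgi fucose transporter Slc35c1 (-0.42 ± 0.20) had the largest differences, and Gmds, the entry enzyme of the main route, stood at -0.01 ± 0.14. The other fucosyltransferases were split, with 3 of 7 below 0 and a median of 0.38, which was 0.10 with median centring and 0.09 with a stricter filter on dim probes. Fut11 (-0.66 ± 0.21) and the core fucosyltransferase Fut8 (-0.62 ± 0.15) were on the low side. Fut10 stood at 0.40 ± 0.15, and Fut1, dim at 12.1 and 19.4 units, at 1.26 ± 0.27. Of 9 measured partners of NCAM in adhesion and signalling, 5 lay below 0 and none differed 2-fold, with a median of -0.05. The growth factor receptor Fgfr1 had the largest difference (0.58 ± 0.10, all 4 probes above 0), followed by the kinase Fyn (-0.32 ± 0.20), Prnp (0.31 ± 0.14) and Ret (-0.28 ± 0.21).

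**Figure D4:**
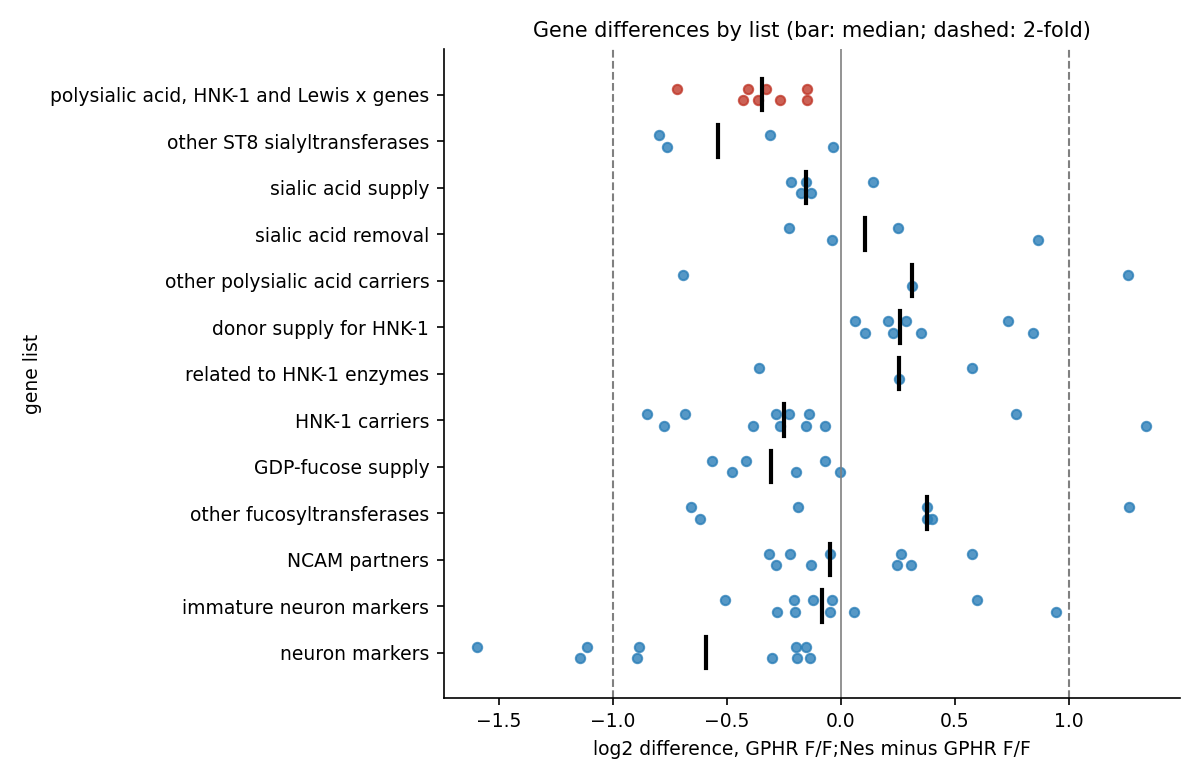
Log2 differences (GPHR F/F;Nes less control, 1 array each) of single measured genes, as points, by gene list, with a black bar at each list's median and dashed lines at 2-fold. The 8 genes for polysialic acid, HNK-1 and Lewis x (red) all lie below 0, as do the other ST8 sialyltransferases, the GDP-fucose supply genes and the neuron markers, whereas all 8 donor supply genes for HNK-1 lie above 0 in this scaling (their median is -0.02 with median centring).

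Markers of the cells that carry these glycans differed between the genotypes too. All 10 neuron markers were measured and lay below 0, with a median of -0.59. Their summed scaled level was 50.3 in the control and 34.6 in GPHR F/F;Nes (in units of the 75th percentile), and the neurofilament genes Nefm (-1.60 ± 0.14), Nefl (-1.14 ± 0.14) and Nefh (-1.12 ± 0.15) were at least 2-fold lower. The smallest differences were those of Snap25 (-0.14 ± 0.12), Syt1 (-0.15 ± 0.12), Gad2 (-0.19 ± 0.12) and Gad1 (-0.20 ± 0.12). Read from the brightest probe, 9 of the 10 lay below 0, with Snap25 above it. All 6 markers of oligodendrocyte precursors, which can bear polysialic acid, lay below 0 as well (median -0.48, summed level 29.5 and 20.2), with Gpr17 at -2.46 ± 0.20. Of 10 markers of immature neurons, 7 lay below 0, with a median of -0.08 and a summed level of 94.9 and 85.2. Among them Dcx, a protein of migrating neurons, stood at -0.20 ± 0.11, Dlx1 at -0.51 ± 0.20 and Igfbpl1 at 0.95 ± 0.14. All 6 progenitor markers lay above 0 (median 0.81, summed level 16.1 and 24.8), and so did 5 of 7 astrocyte markers (median 0.29, summed level 17.6 and 22.3). The 6 markers of mature oligodendrocytes had a median of 0.28 and a summed level of 2.59 and 3.13. All 6 lay above 0 in the main scaling, but only 3 with median centring (median 0.01), and Mbp averaged probes at 0.47, 0.53 and -0.86, the last its brightest (883.1 and 324.9 units). Median centring brought the astrocyte median to 0.01 as well.

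Markers of choroid plexus, meninges, blood vessels and microglia had higher summed levels in the GPHR F/F;Nes brain in the main scaling, the only one in which sums were calculated. These were 1.32 and 2.26 for 4 microglia markers (4 above 0), and 0.515 and 1.33 for 3 endothelial and mural markers (2 above 0). For 6 meningeal markers (5 above 0) they were 7.3 and 9.88, and for 3 choroid plexus markers (3 above 0) 0.535 and 5.25. Csf1r, the brightest microglia marker, stood at 0.24 ± 0.14 and fell below 0 with median centring, whereas the others stood at 1.69 to 2.14. The endothelial marker Pecam1 stood at -0.07 ± 0.23, against 2.89 ± 0.23 for Vtn and 1.02 ± 0.21 for Pdgfrb. Of the meningeal markers 4 were at least 2-fold higher, and Dcn stood at -0.07 ± 0.20. Most of the choroid plexus sum was Ttr (0.101 and 4.13), without which it was 0.434 and 1.12, and Kcne2 stood at 0.42 ± 0.37. List medians were 1.88 for microglia, 1.02 for endothelial and mural cells, 2.03 for meninges and 1.43 for choroid plexus. In that order they were 0.62, 0.59, 0.86 and 0.86 after normexp, and 0.93, 0.065, 1.07 and 0.48 with spike-ins. Control signals were dim for Trem2 (20.5 units), Tyrobp (17.2 units), Vtn (19.5 units) and Slc6a13 (11.6 units). P2ry12, Tmem119, Cldn5, Cdh5, Rgs5, Kl and Clic6 of these lists, and 3 of 4 erythrocyte markers, had no probe well above background on both arrays, and the fourth, Hba-a1, stood at -0.28. The part of cell makeup in the values of the 8 genes was not tested. In bulk tissue, fewer cells of a type and less RNA per cell cannot be told apart.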

How the data were processed

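The 8 genes, the gene lists and the comparisons were chosen with earlier results of these data known. Brain RNA of 1 mutant (GPHR F/F;Nes) and 1 control (GPHR F/F) sample was hybridised to 1-colour arrays of 62976 spots, both on 1 slide and in 1 scan. Scans were read with Agilent Feature Extraction 11.5.1.1, per the submitters' processing notes. The deposited values are spot intensities on a linear scale, background-subtracted and detrended, per the file headers. The deposited series table is on the log2 scale. Its 2 columns, with medians of -3.19 and -2.92, equalled the log2 processed signal plus a constant (-8.01 and -7.43) within 0.001 for 99.9% of probes, and the authors' choice of constants is not stated in the labels.

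Spots flagged as outliers and control spots were left out. Log2 signals were averaged per probe, and each array's 75th percentile was subtracted. Probes well above background on both arrays (36717) were averaged per gene, by the array's gene name. All 22 probes of the 8 genes had 1 spot, and none was saturated. A group of 1 array leaves no degrees of freedom for a test, and the number of arrays limits the precision. Other genes were named by list: up to 4 with the largest differences and the first of each list. Those named outside this rule, among them Cmas and the sex-linked genes, were chosen after their values were seen. Alternatives used limma 3.58.1 in R 4.3.3 (loess span 0.3, normexp offset 50). All other steps used Python 3.11.15, numpy 2.4.6 and pandas 2.3.3. The steps were tested on simulated data for the comparison of the genotypes, with 23948 genes: 0 of 67 genes changed 1.5-fold, 67 of 67 changed 2.5-fold and 66 of 66 changed 4-fold passed the 2-fold threshold. The simulated noise was smaller than the scanner error of any measured probe of the 8 genes (at least 0.204 log2 units). The simulation therefore checks the calculation only, not how well such changes would be found in these arrays.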

Additional observations from a re-analysis of the deposited data

How the results depend on the processing

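No paired analysis was possible because each group holds 1 array, and for the same reason no sample could be left out. The median of the 8 genes was -0.35 in the main setting, -0.62 with arrays centred on the median, and -1.30 with spike-in RNAs as the scale (chosen after seeing the data). The count of genes at least 2-fold lower was 0, and 8 after spike-in scaling. At a 1.5-fold threshold it was 1 (5.69% of all genes), 5 with median centring (16.5%) and 2 with the brightest probe (6.54%). It was 0 after normexp (2.2%) and 8 with spike-ins, where 72.0% of all genes were at least 1.5-fold lower. Over 13 alternatives, 81 of 104 values of single genes moved by less than their scanner error and 1 lay above 0, that of St8sia4 without a filter on dim probes (0.0019). With the brightest probe alone, B3gat2 stood at -0.77, Fut9 at -0.32 and St8sia2 at -0.12. Of all genes, 1.37% were 2-fold lower and 7.93% 2-fold higher in the main setting. These shares were 3.38% and 4.5% with median centring, 2.36% and 5.15% after quantile normalization, 2.1% and 5.55% after loess, 0.363% and 1.37% after normexp, 38.3% and 0.777% after spike-in scaling, and 2.11% and 14.9% with no filter on dim probes. A stricter filter gave 4.66% higher and left no value for Gpr89. The medians of the lists of other carriers of polysialic acid (-0.50 to 0.31) and of enzymes related to HNK-1 (-0.36 to 0.55) changed sign between settings other than the spike-in scale. That of other fucosyltransferases lay between 0.09 and 0.38. Median centring turned those of sialic acid removal (-0.17) and of HNK-1 donor supply (-0.02).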
